A study of Mus musculus with 48 samples.

Results

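The potassium channel genes of the mouse genome carry symbols that start with Kcn, and 81 of the 15782 genes in the normalised tables had such a symbol. They fell under 21 symbol prefixes, from the inward rectifiers (Kcnj, 14 genes) and the tandem-pore leak channels (Kcnk, 11 genes) to prefixes with 1 member. Each of the 81 was measured in 4 brain regions of 12 mice, in 48 areas of illumination (AOIs) in all: the cornu ammonis of the hippocampus (CA), the dentate gyrus (DG), the frontal cortex (FCT) and a second cortical area (CT). All mice were male C57BL/6, 10 weeks old, and were assigned to 4 groups of 3. FLT-SAL mice spent 35 days on the International Space Station and received saline. FLT-BuOE mice flew and received BuOE (MnTnBuOE-2-PyP5+, a manganese porphyrin that mimics superoxide dismutase) under the skin at 1 mg/kg in 0.2 mL, starting 7 days before launch and then weekly. GC-SAL and GC-BuOE mice stayed on the ground in flight hardware cages for the same time with the same injections, on a schedule that began 3 days later. Flight mice were brought to the laboratory no later than 20 h after splashdown, so every flight sample also carries landing and return. The 3 mice of a group shared 1 slide of 6 μm sections, and slide and group cannot be told apart.

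Potassium channels let potassium leave the cell and so set the resting potential, end the action potential and space the spikes of a neuron. Most are assembled from 4 pore-forming subunits, and cytosolic or membrane-bound auxiliary subunits change their number and gating. In the hippocampus the A-type current of the Kv4 channels with their KChIP partners damps signals in dendrites, the Kv7 channels carry the M-current that acetylcholine suppresses, and the Kir3 channels answer inhibitory transmitters.

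The unit throughout is the Q3-normalised count, the count of a gene's probe scaled so that every AOI has the same upper quartile. AOIs held 140 to 640 nuclei. Their depth ranged over the 12 AOIs of a group from 603927 to 1579380 deduplicated reads in FLT-SAL (median 991426), from 370066 to 1124860 in GC-SAL (median 628308), from 400989 to 916917 in FLT-BuOE (median 548888) and from 322629 to 1075760 in GC-BuOE (median 639735), so FLT-SAL was the most deeply read group. A single member had between 1 and 364 counts in an AOI, with a median of 31. The region labels matched their markers: the summed level of 9 dentate granule cell markers was 497 to 687 in DG and no more than 284 in the other regions. An AOI holds many cells of several types, and fewer cells of a type cannot be told apart from less RNA per cell.

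The regulatory sequence at the start of 3 member genes is shown because these genes carry a result below: Kcnd2, the Kv4 pore gene, was higher in the hippocampal regions, Kcnf1, a silent subunit, was higher in the cortical regions, and Kcnh5, an EAG-type channel, differed between groups. Each sequence is the 250 bases before the annotated start of the gene (RefSeq, GRCm38.p6), written 5′ to 3′ on the strand of the gene. Capitals mark the GC box, GGGCGG or CCGCCC. The windows are chr6:21215096-21215345 on the plus strand for Kcnd2, chr12:17176889-17177138 on the minus strand for Kcnf1 and chr12:75177333-75177582 on the minus strand for Kcnh5.
Kcnd2: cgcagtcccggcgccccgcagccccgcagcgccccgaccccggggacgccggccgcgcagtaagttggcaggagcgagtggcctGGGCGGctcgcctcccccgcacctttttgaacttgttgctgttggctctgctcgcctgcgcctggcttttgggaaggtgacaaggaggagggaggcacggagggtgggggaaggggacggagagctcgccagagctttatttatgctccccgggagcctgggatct
Kcnf1: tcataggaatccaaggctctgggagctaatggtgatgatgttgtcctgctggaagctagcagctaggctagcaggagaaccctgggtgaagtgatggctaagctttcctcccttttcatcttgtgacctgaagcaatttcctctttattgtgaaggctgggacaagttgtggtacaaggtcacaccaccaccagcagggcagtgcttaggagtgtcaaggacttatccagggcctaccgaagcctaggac
Kcnh5: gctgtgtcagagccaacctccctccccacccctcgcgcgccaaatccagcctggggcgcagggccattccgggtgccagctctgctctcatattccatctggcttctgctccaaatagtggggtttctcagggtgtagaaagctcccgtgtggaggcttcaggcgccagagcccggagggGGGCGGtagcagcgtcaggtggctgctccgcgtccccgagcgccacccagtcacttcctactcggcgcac
Kcnd2 had 1 GC box, 166 bases before the start, Kcnh5 had 1, 70 bases before it, and Kcnf1 had none. Of the 81 members 59 matched the promoter table, whose windows run from 250 bases before to 50 bases after a start. Only the 250 bases before the start were used for the shares that follow. A GC box on either strand was found in 36 of the 59 (61.0%), against 35.4% of all 27025 genes in that table. The windows of the members were also richer in G and C, with a median of 58.6% over 84 windows against 52.4% over 32851 windows. The E-box CAGCTG, which reads the same on both strands, was found in 14 of the 59 (23.7%, against 14.7% of all genes). The cyclic AMP response element TGACGTCA, also the same on both strands, was in 0 of the 59 and in 1.77% of all genes. A match describes these letters in this window and is not a measured binding site.

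How far the members rose above the background differed between regions. The background is the mean level of negative-control probes, designed without a mouse target: 11.2 in DG, 14.2 in FCT, 14.8 in CT and 18.6 in CA. At least 1.5 times this level was reached by 42 of the 81 members in CA (51.9%), against 59.8% of all genes. In DG 80 members did so (98.8%, all genes 99.5%), in FCT 75 (92.6%, all genes 88.2%) and in CT 68 (84.0%, all genes 80.2%). All 81 reached it in at least 1 region and 41 in all 4. The members nearest to the limit were Kcnip1 (1.49 times) and Kcnh8 (1.53 times) in CA, Kcnk15 (1.49) and Kcnj15 (1.61) in DG, Kcna10 (1.4982) and Kcnu1 (1.5003) in FCT, and Kcnu1 (1.4993) and Kcnn4 (1.53) in CT. Below the limit a level is mostly background. Counts in what follows cover all 81 members, with those under the limit included.

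In CA, where the background was highest, the subfamilies differed in how many members stood above it. All 4 Kv3 genes (Kcnc, channels of fast-spiking cells), all 3 cytosolic Kv beta genes (Kcnab) and both Kv9 modifier genes (Kcns) did so. Among the Kv7 genes (Kcnq) 4 of 5 did, among the EAG, ERG and ELK genes (Kcnh) 5 of 7, among the KChIP genes (Kcnip) 3 of 4 and among the small-conductance calcium-activated genes (Kcnn) 3 of 4. The inward rectifiers reached 7 of 14, the Kv1 genes (Kcna) 2 of 6 and the tandem-pore leak genes 3 of 11. None of the single members Kcnf1, Kcnma1, Kcnrg, Kcnu1 and Kcnv1 did. In DG the only member under the limit was the leak channel gene Kcnk15.

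The strongest signals came from a few genes. Kcnip2, a calcium-binding partner of Kv4, reached 10.6 times the background in CA and 18.6 times in DG, and Kcnn2, a calcium-activated channel gene, reached 7.02 times in FCT and 6.66 times in CT. At the other end were the leak genes Kcnk3 in CA (1.05 times) and Kcnk6 in CT (1.27 times) and the silent Kv6 gene Kcng2 in FCT (1.35 times). Members at 5 or more times the background numbered 15 in DG, 10 in CT, 9 in FCT and 5 in CA. Because each gene was read by 1 probe of its own efficiency, a higher count of one gene than of another does not rank their transcripts.

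**Figure D1:**
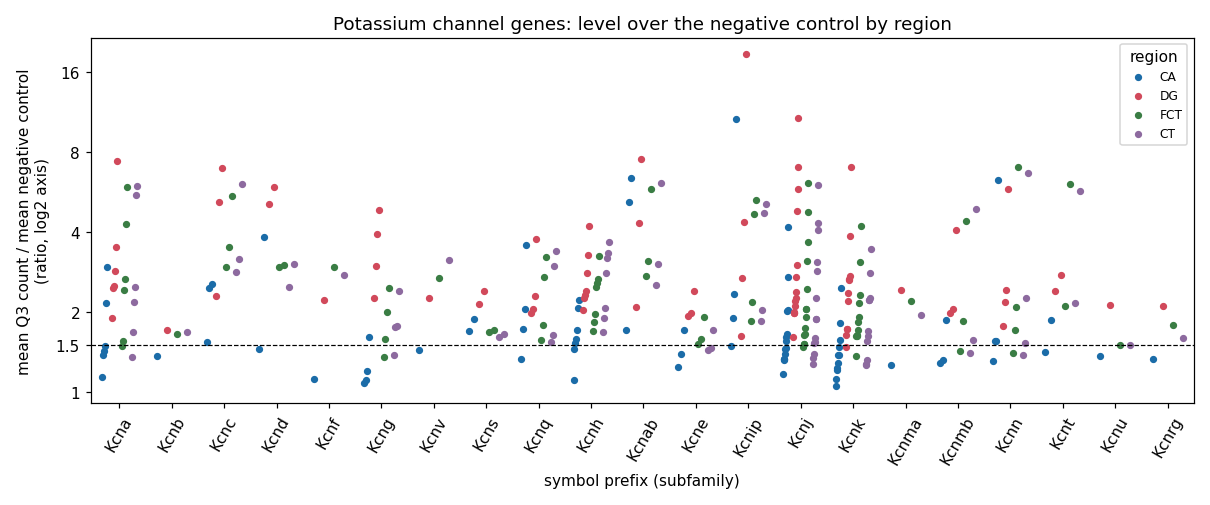
Mean level of 78 Kcn genes over 12 mice as a multiple of the negative-control level (log2 axis), grouped by symbol prefix. The regions stand side by side in colour within each prefix, and the dashed line is 1.5 times. Members crowd at the line in CA, where 42 of all 81 members reach it, and lie almost all above it in DG, where 80 of the 81 do.

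Members with the highest mean of their subfamily over the 48 AOIs were Kcna1 among the Kv1 genes, Kcnab2 among the Kv beta genes, Kcnd2 for Kv4, Kcng1 for Kv6, Kcnh3 for the EAG, ERG and ELK genes, Kcnip2 for the KChIP genes, Kcnj6 for the inward rectifiers, Kcnk1 for the leak genes, Kcnmb4 for the beta subunits of the large-conductance (BK) channel, Kcnn2 for the calcium-activated genes, Kcns2 for Kv9, Kcnt1 for the sodium-activated channels and Kcne3 for the MinK-related auxiliaries. Kcnf1, Kcnma1, Kcnrg, Kcnu1 and Kcnv1 were the only measured members under their prefix. Kcnab2, the Kv beta subunit, had a median of 111 in CA, 90.1 in CT, 84.8 in DG and 82.1 in FCT, and Kcna1, a Kv1 pore subunit of axons, a median of 86.0 in CT, 79.7 in DG, 77.5 in FCT and 50.9 in CA. Others stayed close to the background in every region, among them Kcne3 (1.71 to 2.41 times), Kcnma1, the BK pore gene (1.26 to 2.42 times), Kcnrg, which encodes a regulator of channel assembly (1.34 to 2.11 times), Kcns2 (1.62 to 2.39 times) and Kcnu1, the Slo3 gene (1.37 to 2.13 times). The ELK gene Kcnh3 lay between, at 2.21 to 4.20 times.

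The hippocampal regions differed from each other in many potassium channel genes. Levels were compared with limma on log2 values with the mouse as a random block and Benjamini-Hochberg adjustment over all 15782 genes, and a gene was called at an adjusted p under 0.05 and a difference beyond 1.5-fold. Between DG and CA 16 of the 81 members were called (19.8%, against 4.1% of all genes), 11 of them higher in DG (2.41% of all genes were called higher) and 5 lower (1.69% of all genes). The median log2 difference over the members was -0.08, close to the -0.07 over all genes.

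Among the members higher in DG were the Kv3 genes Kcnc1 and Kcnc4, 3 of the 4 Kv6 modifiers, the Kv4 gene Kcnd3, 3 inward rectifiers and the leak gene Kcnk1. The inward rectifier gene Kcnj4, of the constitutively open Kir2 type, had a lowest, median and highest value of 29.2, 37.3 and 46.0 in CA and of 41.4, 83.2 and 101 in DG. The ranges overlap, and the log2 difference was 1.02 (SE 0.09, limma adjusted p 1.7e-18). Kcnd3, an A-type pore gene, went from a median of 28.5 in CA to 55.5 in DG (log2 difference 1.10, SE 0.10). The Kv6 genes encode subunits that form no channel alone and modify Kv2 channels, and a pair of them gave the largest differences, 1.29 for Kcng1 (SE 0.12) and 1.27 for Kcng2 (SE 0.17), beside 0.74 for Kcng3 (SE 0.12). In CA these 3 genes lay at 1.21, 1.11 and 1.08 times the background and Kcnd3 at 1.45 times, so their CA values are mostly background. Kcnc4 differed by 1.02 (SE 0.10) and Kcnc1 by 0.72 (SE 0.09). The Kir3 genes Kcnj9 and Kcnj6, whose channels open on inhibitory transmitter signals, differed by 0.77 (SE 0.09) and 0.62 (SE 0.08), and Kcnk1 by 0.75 (SE 0.08). Each of the 11 called genes was higher in DG in 12 of 12 mice.

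The members lower in DG were a different set of types. Kcnab1, a Kv beta gene, had 60.6, 95.9 and 131 in CA and 33.4, 47.7 and 63.4 in DG, with a log2 difference of -0.94 (SE 0.10, limma adjusted p 1.8e-13). Kcnn2, a calcium-activated channel of the afterhyperpolarisation, had 97.7, 123 and 133 in CA and 51.1, 64.1 and 78.5 in DG, a log2 difference of -0.84 (SE 0.08). Its ranges in the 2 regions do not overlap. Kcnc2, also a Kv3 gene, differed by -0.82 (SE 0.10) and was lower in 12 of 12 mice, against the direction of Kcnc1 and Kcnc4. Kcnh7, an ERG channel gene, differed by -0.75 (SE 0.10, lower in 11 of 12 mice). Kcnq3, a gene of the M-current channel, had 47.4, 62.9 and 102 in CA and 30.0, 41.8 and 56.0 in DG and was lower in 10 of 12 mice. Its log2 difference of -0.62 (SE 0.09, limma adjusted p 3.1e-08) spanned -1.30 to -0.09 over the 4 slides and lost the call, by its size, under edgeR (-0.58).

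The background itself differed between these regions: the negative control was lower in DG than in CA in 12 of 12 mice, by 0.69 on the log2 scale (SD 0.16). With each AOI's negative-control level subtracted, the median difference of all genes moved to 0.71, and 50 members were called (50.8% of all genes), 46 higher and 4 lower. On that scale the 11 higher genes had differences from 0.88 (Kcnj6) to 3.65 (Kcng1), all above that median, while Kcnab1, Kcnn2, Kcnc2, Kcnh7 and Kcnq3 stayed lower at -0.98, -0.86, -0.87, -0.79 and -0.56.

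**Figure D2:**
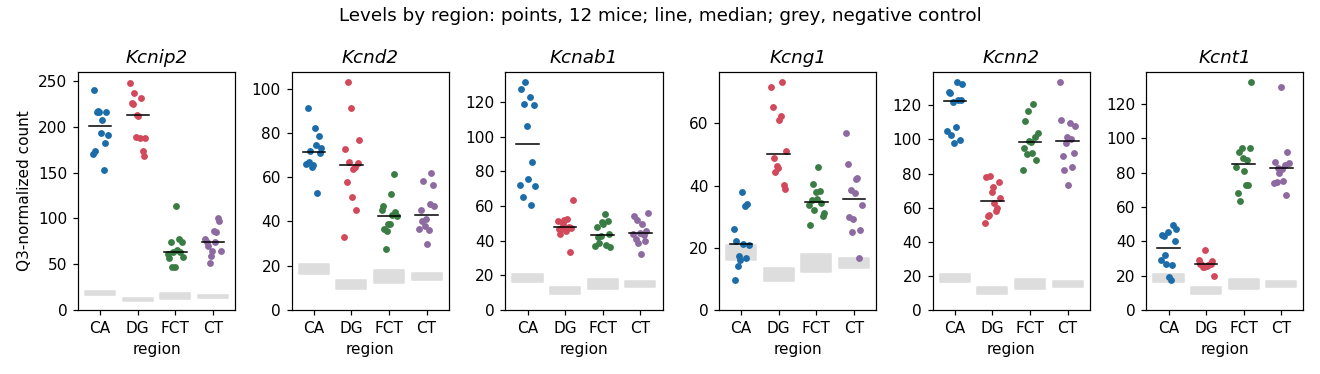
Q3-normalised level of 6 Kcn genes in each region, 1 point per mouse (12 per region), with the median as a line and the negative-control level in grey. Kcnip2 separates the hippocampal regions CA and DG from the cortical regions, Kcnt1 does so in the other direction, and Kcng1 has its highest median in DG.

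CA and DG together differed from FCT and CT in 13 of the 81 members (16%, against 3.19% of all genes), 4 of them higher in the hippocampal regions (0.881% of all genes) and 9 lower (2.31% of all genes). The largest difference was that of Kcnip2, with a lowest, median and highest value of 169, 213 and 248 in DG, 153, 201 and 240 in CA, 51.7, 74.2 and 101 in CT and 46.9, 63.3 and 114 in FCT. The hippocampal and cortical ranges do not overlap, and the log2 difference was 1.53 (SE 0.06, limma adjusted p 2e-45), a 2.88-fold difference, with 1.24 to 1.95 on the 4 slides. Kcnd2, the Kv4 pore gene whose channel binds KChIP proteins, had medians of 71.5 in CA, 65.4 in DG, 43.1 in CT and 42.6 in FCT. Its ranges overlap, and the log2 difference was 0.63 (SE 0.07, higher in 11 of 12 mice). Kcnj6 was higher by 0.78 (SE 0.06), in 12 of 12 mice. Kcnab1 was higher by 0.58 (SE 0.07, limma adjusted p 2.2e-11), just short of 1.5-fold. For Kcnab1 this came mainly from CA, with group means of 86.4 to 119. Its group means were 47.2 to 49.7 in DG, near the 42.4 to 47.5 in FCT and 41.5 to 47.3 in CT.

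On the cortical side stood Kcnt1, which encodes the sodium-activated channel Slack. Its lowest, median and highest values were 63.5, 85.3 and 133 in FCT, 67.1, 82.6 and 130 in CT, 17.3, 35.9 and 49.7 in CA and 20.0, 26.7 and 35.0 in DG. Every cortical value was above every hippocampal one, and the log2 difference was -1.47 (SE 0.07, limma adjusted p 1.1e-36), with -1.75 to -1.26 on the 4 slides. The silent subunit Kcnf1 differed by -0.85 (SE 0.08) and the silent subunit Kcnv1 by -0.67 (SE 0.07). In CA these lay at 1.12 and 1.45 times the background. Others among the 9 were the Kv1 gene Kcna2 (-0.80, SE 0.07), the BK beta gene Kcnmb4 (-0.73, SE 0.07), Kcnj4 (-0.69, SE 0.06), the KChIP gene Kcnip3 (-0.63, SE 0.07) and the Kv7 gene Kcnq5 (-0.60, SE 0.07). All 9 were lower in the hippocampal regions in 12 of 12 mice except Kcnq5, which was lower in 11. For Kcnj4 the pooled difference came mainly from CA, with a mean level of 37.8, since its mean of 78.5 in DG was near the 87.0 in FCT and 89.2 in CT. The negative control differed here by less than its spread over mice (-0.00079 on the log2 scale, SD 0.15). That value averages unlike regions: the control was 18.6 in CA and 11.2 in DG, against 14.2 in FCT and 14.8 in CT. With the negative control subtracted 35 members were called, 8 higher and 27 lower, against 9.84% of all genes.

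**Figure D3:**
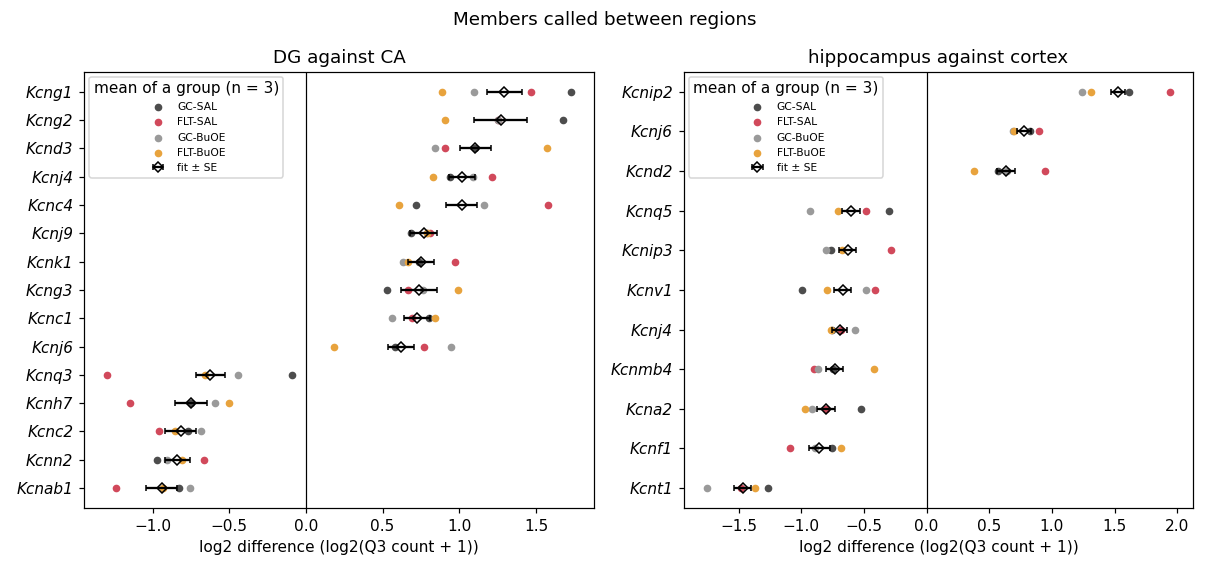
Log2 difference of called Kcn genes between DG and CA and between the hippocampal and cortical regions (limma estimate with SE as the bar, and the difference within each of the 4 groups as small points). The 4 groups lie on the same side of 0 for each gene shown, from 1.53 for Kcnip2 to -1.47 for Kcnt1.

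The cortical regions were much closer to each other. No member was called between FCT and CT by limma or by edgeR (0.101% of all genes by limma), although 16 members had an unadjusted p under 0.05 (19.8%, against 8.22% of all genes) and 3 an adjusted one (3.7%, against 0.786% of all genes). These 3 were Kcnh5 (-0.55, SE 0.12, limma adjusted p 0.0038), Kcna2 (-0.43, SE 0.10, adjusted p 0.0062) and the EAG gene Kcnh1 (-0.41, SE 0.11, adjusted p 0.039), all lower in FCT by less than 1.5-fold. For Kcnh5 the difference spanned -1.25 to 0.09 over the 4 slides. The astrocyte inward rectifier Kcnj10 (-0.31) and Kcnv1 (-0.27) followed, and on the other side Kcnk18, Kcnk15, Kcnc4, Kcnk1 and Kcnj15 were between 0.20 and 0.27, none past an adjusted p of 0.05. In CT Kcnk18 and Kcnk15 lay below 1.5 times the background.

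Genes for proteins that bind potassium channels also differed in level between regions. Of all genes, 4.1% were called between DG and CA and 3.19% between the hippocampal and cortical regions. Of 22 measured partner genes 4 were called higher in DG than in CA: Nedd4l, a ubiquitin ligase of Kv7 (log2 difference 0.75), Lgi1, a secreted protein of the Kv1 complex (0.81), Abcc8, the sulfonylurea receptor of the ATP-sensitive channel (0.69), and Ank3, the scaffold of the axon initial segment (0.71). Adam23 (-0.64) and Cntnap2 (-0.61), of the Kv1 complex, were lower. Dpp6, a Kv4 auxiliary, was higher in the hippocampal regions (0.80), as Kcnip2 and Kcnd2 were, while its relative Dpp10 (-0.68) and the scaffold gene Dlg1 (-0.79) were lower. Of 4 measured genes for HCN channels and their partner, Pex5l was lower in DG than in CA (-1.31). Of 14 pump and cotransporter genes, Fxyd7, of a family of sodium pump regulators, was lower in the hippocampal regions than in the cortical ones (-0.95).

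Between the groups, few potassium channel genes passed the test. Each region was fitted on its own (12 AOIs, limma on log2 values, adjustment over all 15782 genes, called at an adjusted p under 0.05 beyond 1.5-fold). Over 4 contrasts and 4 regions 2 results were called: Kcnh5 in CT between FLT-BuOE and FLT-SAL, and Kcnt1 in CA between FLT-BuOE and GC-BuOE. Contrasts that share a group share its mice, so their values are not independent of each other.

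**Figure D4:**
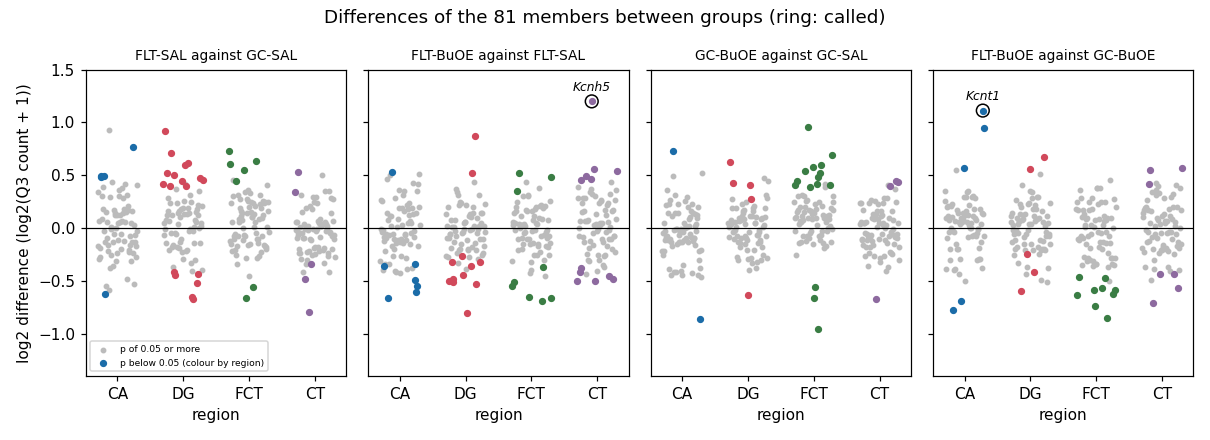
Log2 difference of each of the 81 Kcn genes in 4 group contrasts, 1 panel per contrast, with the 4 regions side by side; a ring marks a called gene. The points centre near 0, and 2 rings are seen, at 1.20 (Kcnh5, CT) and 1.11 (Kcnt1, CA).

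Flight in saline mice was the first comparison (FLT-SAL against GC-SAL). No member was called by limma, where the share of all genes called was 0.266% in DG, 0.139% in CA, 0.0887% in CT and 0.0507% in FCT. At an unadjusted p under 0.05 there were 18 members in DG (22.2%, against 7.41% of all genes), 7 in FCT (8.64%, against 5.66% of all genes), 5 in CA (6.17%, against 6.73% of all genes) and 5 in CT (6.17%, against 5.27% of all genes). edgeR called Kcnq3 in CA, Kcnk1 in DG and Kcnh5 in CT, and DESeq2 called Kcnq3 in CA, Kcnk1 in DG and Kcna1 in FCT.

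In CA the M-current gene Kcnq3 had 52.3, 59.1 and 47.4 in the 3 GC-SAL mice and 89.5, 102 and 81.6 in the 3 FLT-SAL mice. The groups do not overlap, and the log2 difference of 0.77 (SE 0.19) had a limma adjusted p of 0.064, 0.024 by edgeR and 0.032 by DESeq2. With BuOE the same gene had 50.6, 70.7 and 49.8 in GC-BuOE and 53.8, 66.7 and 73.1 in FLT-BuOE, which overlap. Kcnab2, the Kv beta gene, had 93.9, 124 and 104 in GC-SAL and 140, 154 and 156 in FLT-SAL (log2 difference 0.49, SE 0.16, limma adjusted p 0.29). The summed level of 7 CA1 pyramidal cell markers was 688 to 716 in FLT-SAL and 501 to 621 in GC-SAL, also without overlap, and that of 8 measured GABAergic interneuron markers 251 to 299 and 223 to 246. Their part in the difference was not tested.

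DG held the most members at an unadjusted p under 0.05, 12 higher (4.43% of all genes) and 6 lower (2.98% of all genes) in FLT-SAL. The higher ones included Kcna1, Kcna4, Kcnab2, Kcnd2, Kcng2, Kcnj3, Kcnj4, Kcnj11, Kcnk1, Kcns2 and Kcnv1, and the lower ones Kcng1, Kcng3, Kcnk3, Kcnk6, Kcnn3 and Kcnq3. None passed the adjustment. Kcnk1, a leak channel gene, had 59.3, 77.3 and 57.0 in GC-SAL and 99.3, 97.7 and 98.6 in FLT-SAL, without overlap (log2 difference 0.62, SE 0.16, adjusted p 0.066 by limma and 0.026 by edgeR). The BuOE groups overlap, at 64.5, 72.5 and 83.4 on the ground and 70.04, 70.04 and 91.2 in flight. Kcnd2 had 33.1, 72.6 and 58.0 in GC-SAL and 103, 67.1 and 91.5 in FLT-SAL, which overlap (log2 difference 0.71, SE 0.20, limma adjusted p 0.11). Between FLT-BuOE and GC-BuOE, a contrast with no mouse in common, 14 of these 18 genes had the same sign (77.8%, against 61.5% of all genes with an unadjusted p under 0.05), 1 of them with an unadjusted p under 0.05 again. The same tally gave 1 of 5 members in CT (20%, against 59.9% of all genes), 5 of 7 in FCT (71.4%, against 62.8% of all genes) and 4 of 5 in CA (80%, against 64.0% of all genes). The summed level of the 9 dentate granule cell markers was 616 to 687 in FLT-SAL, above the 497 to 573 in GC-SAL. Other cell types separated there too: the GABAergic interneuron markers summed to 274 to 330 in FLT-SAL and 232 to 265 in GC-SAL, 10 astrocyte markers to 554 to 611 and 474 to 506, and 7 measured microglia markers to 191 to 195 and 196 to 224. The part of these sums was not tested.

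Kcna4, a Kv1 gene of the fast-inactivating type, had the largest difference among the members in DG and rested on 1 mouse. Its values were 8.28, 26.1 and 26.0 in GC-SAL (6, 28 and 26 counts) and 34.1, 32.2 and 38.6 in FLT-SAL. The groups do not overlap, and the first GC-SAL mouse stands well below the other two, under its own background level of 11.0. The log2 difference of 0.92 (SE 0.26, limma adjusted p 0.14) was 0.41 without that mouse and 1.18 without the second GC-SAL mouse, where the call was made. In GC-BuOE Kcna4 had 27.8, 22.5 and 35.6 and in FLT-BuOE 21.7, 33.8 and 32.2, a log2 difference of 0.03 (SE 0.26). In the other regions its FLT-SAL to GC-SAL difference was -0.27 in CA (SE 0.27), where it lay at 1.42 times the background, -0.15 in FCT (SE 0.26) and 0.06 in CT (SE 0.23). Its median over 12 mice was 30.0 in DG, 27.3 in CA, 24.5 in CT and 22.4 in FCT, and the 4 ranges overlap.

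In FCT the Kv1 gene Kcna1 had 64.2, 55.7 and 73.0 in GC-SAL and 99.5, 122 and 100.3 in FLT-SAL, without overlap (log2 difference 0.73, SE 0.17, adjusted p 0.079 by limma and 0.049 by DESeq2). The KChIP gene Kcnip3 had 117, 70.6 and 80.0 in GC-SAL and 49.2, 52.2 and 63.9 in FLT-SAL (log2 difference -0.66, SE 0.18, limma adjusted p 0.27). The summed oligodendrocyte markers in FCT were 1277 to 1964 in FLT-SAL and 1063 to 1244 in GC-SAL, and their part was not tested. In CT Kcnab2 had 59.4, 103 and 71.7 in GC-SAL and 98.2, 101 and 136 in FLT-SAL, which overlap (log2 difference 0.53, SE 0.18, limma adjusted p 0.53).

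BuOE in flight was the second comparison (FLT-BuOE against FLT-SAL), and it held the clearest group difference. Kcnh5, whose product is an EAG-type voltage-gated channel, had 32.7, 26.5 and 31.8 in CT in the FLT-SAL mice and 105, 81.2 and 41.6 in the FLT-BuOE mice. The groups do not overlap, the third FLT-BuOE mouse is well below the others, and the log2 difference was 1.20 (SE 0.20, 2.30-fold), with an adjusted p of 0.00084 by limma, 4.8e-05 by edgeR and 0.00033 by DESeq2. It was the 1 member called in a comparison that called 0.0697% of all genes. Without the first FLT-BuOE mouse the difference was 0.92 (limma adjusted p 0.15), and without the third it was 1.58. The GC-SAL mice had 47.3, 52.7 and 60.5 and the GC-BuOE mice 59.5, 50.7 and 60.03. All FLT-SAL values lay below these, while the FLT-BuOE values 105 and 81.2 lay above them and 41.6 below. The log2 difference of FLT-SAL from GC-SAL was -0.80 (SE 0.20, adjusted p 0.15 by limma and 0.039 by edgeR). FLT-BuOE differed from GC-BuOE by 0.32 (SE 0.20). The interaction, the change of the flight difference with BuOE, was 1.11 on the log2 scale (SE 0.28, limma adjusted p 0.36).

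Markers of several cell types also differed between the groups in CT. The summed level of 7 measured cortical neuron markers (of 9 listed) was 370, 311 and 323 in FLT-SAL and 472, 543 and 400 in FLT-BuOE, against 370 to 391 in GC-SAL and 348 to 398 in GC-BuOE, so FLT-BuOE lay above the other groups. That of 9 measured oligodendrocyte markers (of 10 listed) was 1364 to 1885 in FLT-SAL, against 696 to 853 in FLT-BuOE, 763 to 824 in GC-SAL and 878 to 1077 in GC-BuOE. FLT-SAL lay above the other groups in that sum. The flight groups did not overlap in the GABAergic interneuron markers either (383 to 452 in FLT-SAL, 266 to 335 in FLT-BuOE), nor in the microglia markers (196 to 215 and 168 to 192). The part of these sums in the difference was not tested. Other members did not follow evenly: of the 12 members in CT at an unadjusted p under 0.05 (14.8%, against 5.73% of all genes), 6 were higher in FLT-BuOE (2.31% of all genes) and 6 lower (3.43% of all genes). Kcnip2 had 51.7, 58.5 and 64.7 in FLT-SAL and 101, 96.7 and 64.7 in FLT-BuOE (log2 difference 0.55, SE 0.17, limma adjusted p 0.31).

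In the other regions no member was called between FLT-BuOE and FLT-SAL by limma, edgeR or DESeq2 (limma called 0.00634% of all genes in CA, 0% in DG and 0.0317% in FCT). At an unadjusted p under 0.05 there were 7 in CA (8.64%, against 4.96% of all genes), 12 in DG (14.8%, against 6.2% of all genes), 10 of them lower in FLT-BuOE (4.09% of all genes) and 2 higher (2.11% of all genes), and 9 in FCT (11.1%, against 7.65% of all genes). At or above 1.5 times the background were 6 of the 7 in CA and 7 of the 9 in FCT. In CA Kcnq3 gave -0.49 (SE 0.19) and Kcnq5 -0.60 (SE 0.24), both with a limma adjusted p of 0.93. The CA1 pyramidal cell markers in CA summed to 563 to 633 in FLT-BuOE, below the 688 to 716 in FLT-SAL, and 7 measured endothelial and mural cell markers to 172 to 192, below 198 to 202. Of these last 7 genes, 3 reached 1.5 times the background in each group, so their sum is largely background. In DG Kcnab2 had 100.1, 99.8 and 111 in FLT-SAL and 75.04, 91.3 and 56.7 in FLT-BuOE (log2 difference -0.50, SE 0.16, limma adjusted p 0.43), and the glial Kir gene Kcnj16 gave -0.81 (SE 0.26, adjusted p 0.48). The GABAergic interneuron markers in DG summed to 255 to 266 in FLT-BuOE and 274 to 330 in FLT-SAL. The oligodendrocyte markers in DG summed to 561.4 to 786.7 in FLT-BuOE, narrowly above the 512.4 to 560.8 in FLT-SAL. In FCT Kcnj10 gave -0.65 (SE 0.23) and Kcnu1 -0.67 (SE 0.23), both with a limma adjusted p of 0.44. Kcnu1 lay at 1.5003 times the background there. The oligodendrocyte markers in FCT summed to 840 to 1108 in FLT-BuOE, below the 1277 to 1964 in FLT-SAL, and the cortical neuron markers to 368 to 455, above 302 to 341. The part of these sums was not tested.

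**Figure D5:**
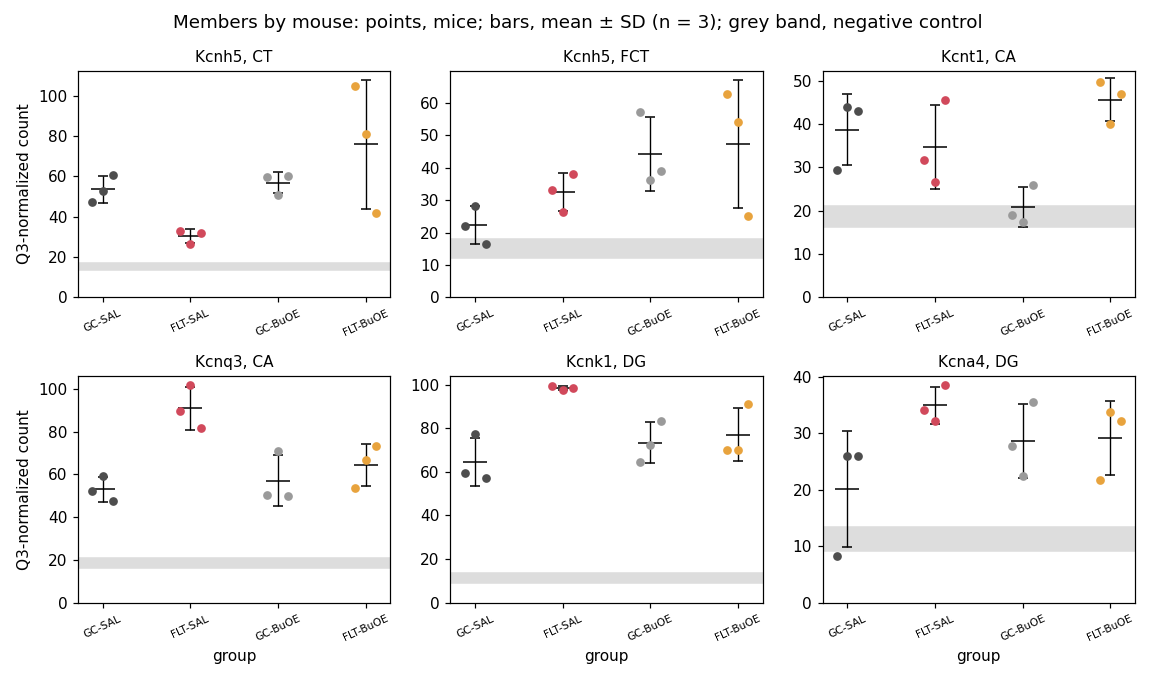
Q3-normalised level in each mouse by group, with mean ± SD (n = 3), for Kcnh5 in CT and FCT, Kcnt1 and Kcnq3 in CA, and Kcnk1 and Kcna4 in DG; the grey band is the range of the negative control. Kcnh5 in CT runs from 26.5 to 32.7 in FLT-SAL and from 41.6 to 105 in FLT-BuOE, and 1 GC-SAL mouse sets Kcna4 apart in DG.

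BuOE on the ground (GC-BuOE against GC-SAL) gave no called member in any region by limma, edgeR or DESeq2, where limma called 0.00634% of all genes in FCT and 0% in CA, DG and CT. The count at an unadjusted p under 0.05 was 15 in FCT (18.5%, against 5.63% of all genes), 5 in DG (6.17%, against 5.21% of all genes), 4 in CT (4.94%, against 3.78% of all genes) and 2 in CA (2.47%, against 5.6% of all genes). Of the 2 in CA 1 lay at or above 1.5 times the background. Of the 15 in FCT 12 were higher with BuOE (3.23% of all genes), among them Kcna2, Kcnip2, Kcnj6, Kcnj9, Kcnq5 and Kcnh5, and 3 inward rectifiers (Kcnj8, Kcnj15 and Kcnj16) were lower (2.4% of all genes). Kcnh5 in FCT had 22.1, 28.3 and 16.5 in GC-SAL and 57.3, 36.3 and 39.1 in GC-BuOE, without overlap (log2 difference 0.96, SE 0.24, limma adjusted p 0.32). The flight mice had 33.2, 26.4 and 38.2 with saline and 62.9, 54.3 and 25.01 with BuOE, which overlap. Kcnj8, the pore of the vascular ATP-sensitive channel, had 25.3, 57.3 and 22.4 in GC-SAL and 17.3, 20.0 and 11.8 in GC-BuOE (log2 difference -0.95, SE 0.27, limma adjusted p 0.71), where 1 GC-SAL mouse is far above the other values. The summed cortical neuron markers in FCT were 347 to 380 in GC-BuOE and 308 to 343 in GC-SAL, and the summed oligodendrocyte markers 568 to 1032 and 1063 to 1244. Neither sum overlaps between the groups, and their part was not tested. Elsewhere members with small unadjusted p included Kcnt1 (-0.87, SE 0.24) in CA, the Kir2 gene Kcnj14 (-0.63, SE 0.23) in DG, and Kcnip1 (-0.67, SE 0.21) and Kcnq5 (0.44, SE 0.19) in CT, with limma adjusted p from 0.61 to 1.0. The oligodendrocyte markers summed to 467 to 518 in GC-BuOE and 545 to 588 in GC-SAL in DG, and to 878 to 1077 and 763 to 824 in CT, and their part was not tested.

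Flight under BuOE (FLT-BuOE against GC-BuOE) gave 1 called member, Kcnt1 in CA, in a comparison that called 0.0444% of all genes. It had 18.96, 17.3 and 26.0 in GC-BuOE and 49.7, 40.0 and 47.0 in FLT-BuOE, without overlap (log2 difference 1.11, SE 0.24, 2.16-fold). The adjusted p was 0.047 by limma, 0.024 by edgeR and 0.91 by DESeq2, and leaving out single mice gave 0.023 to 0.19, with the call kept in 4 of 12 cases. The negative control in CA ran from 16.1 to 20.9, and 2 of the 3 GC-BuOE values lay within it. The saline groups overlapped, with 29.2, 43.8 and 43.0 on the ground and 31.8, 26.7 and 45.4 in flight, and the interaction of 1.28 (SE 0.34) had a limma adjusted p of 0.90. Microglia markers in CA summed to 197 to 219 in FLT-BuOE and 223 to 239 in GC-BuOE, endothelial and mural cell markers to 172 to 192 and 193 to 234, and their part was not tested.

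In the other regions no member was called between FLT-BuOE and GC-BuOE by limma, edgeR or DESeq2 (limma called 0.108% of all genes in DG, 0.019% in FCT and 0.0127% in CT). Counts at an unadjusted p under 0.05 were 9 in FCT (11.1%, against 7.17% of all genes), 9 lower in flight (5.27% of all genes) and 0 higher (1.9% of all genes), 7 in CT (8.64%, against 6.65% of all genes), 5 in DG (6.17%, against 8.24% of all genes) and 5 in CA (6.17%, against 7.52% of all genes). At or above 1.5 times the background were 7 of the 9 in FCT and 2 of the 5 in CA. Kcng1 in DG had 61.1, 62.5 and 73.4 in GC-BuOE and 40.0, 38.8 and 51.1 in FLT-BuOE, without overlap (log2 difference -0.60, SE 0.17, limma adjusted p 0.19). Kcnj6, a Kir3 gene, gave -0.41 in DG (SE 0.14) and the epithelial Kir gene Kcnj13 gave 0.57 in CA (SE 0.26). In FCT Kcnj12 of the Kir2 type gave -0.74 (SE 0.22) and Kcns2 -0.62 (SE 0.23), and in CT Kcng1 gave -0.71 (SE 0.22) and Kcnv1 0.57 (SE 0.18). The limma adjusted p of these 6 ran from 0.28 to 0.64. Marker sums without overlap between these groups were those of dentate granule cells in DG (585 to 675 in FLT-BuOE, 552 to 575 in GC-BuOE), oligodendrocytes in DG (561 to 787 and 467 to 518), endothelial and mural cells in FCT (152 to 175 and 187 to 223), and, in CT, cortical neurons (400.2 to 543 and 348 to 398), oligodendrocytes (696 to 853 and 878 to 1077) and microglia (168 to 192 and 199 to 223). Their part was not tested.

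Kcnh5 was above 1.5 times the background in every region, at 3.66 times in CT (median 51.7), 2.79 in DG (median 32.96), 2.57 in FCT (median 34.7) and 1.59 in CA (median 30.9). Its spread over the 12 mice was widest in the cortical regions, 16.5 to 62.9 in FCT and 26.5 to 105 in CT, against 19.5 to 40.0 in CA and 23.5 to 37.8 in DG. In CA and DG its 4 group contrasts lay between -0.21 and 0.16 on the log2 scale.

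Whether the saline flight difference itself differed between regions was tested with an F test over the 4 regions. limma called 0 of the 81 members (0.0444% of all genes), with 9 at an unadjusted p under 0.05 (11.1%, against 4.29% of all genes), and edgeR called 2, Kcnh5 and Kcnq3. The smallest limma p was that of Kcnq3 (p 0.00014, adjusted p 0.13). The interaction of flight and BuOE gave no called member in any region by limma, edgeR or DESeq2, where limma called 0.019% of all genes in CT, 0.00634% in FCT, 0.00634% in CA and 0% in DG. The counts at an unadjusted p under 0.05 were 11 in FCT (5.43% of all genes), 9 in DG (6.39% of all genes), 7 in CA (5.39% of all genes) and 7 in CT (4.81% of all genes). At or above 1.5 times the background were 10 of the 11 in FCT and 5 of the 7 in CA.

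Among the partner genes no potassium channel partner and no HCN gene was called between groups in any region. The sodium pump gene Atp1b1 gave 0.54 in DG between FLT-SAL and GC-SAL (SE 0.13, limma adjusted p 0.046), short of 1.5-fold. Of the 14 pump and cotransporter genes 5 in CA were higher in FLT-SAL at an unadjusted p under 0.05 (35.7%, against 4.63% of all genes), 4 in FCT (28.6%, against 3.69% of all genes), 4 in DG (28.6%, against 4.43% of all genes) and 1 in CT (7.14%, against 2.87% of all genes), and 0 were lower.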

How the data were processed

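RNA was read by GeoMx digital spatial profiling, in which probes with photocleavable tags are hybridised to a section, released by light from a chosen area and sequenced. Areas were chosen by morphology with GFAP, Iba1 and Syto83. Per the labels, the authors processed reads with the GeoMx NGS Pipeline (2.3.4), and for 20175 probes the raw counts in each AOI were deposited without normalisation. The authors also deposited a Q3-normalised signal for 15782 genes, in which each AOI has the same upper quartile (40.0), so that levels could be compared across the 4 tables. A genome build does not enter, since tags identify probes. The deposited columns of the authors' own comparisons (log2 fold change, p-value, adjusted p-value) were not used, and 0 columns of values per sample were left aside.

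Each of the 81 members matched 1 probe. limma 3.58.1 in R 4.3.3 was fitted on log2(signal + 1) with group means, trended empirical Bayes moderation and p-values adjusted over 15782 genes (Benjamini-Hochberg), within a region (12 AOIs) for groups and over 48 AOIs for regions. The 4 AOIs of a mouse come from 1 brain, so the mouse entered the fit over regions as a random block (correlation 0.026). A fold change is on the scale of log2(signal + 1), which understates low genes. edgeR 4.0.16 and DESeq2 1.42.0 were run as alternatives on the whole counts of 15779 genes. The other alternatives were a pseudocount of 5, a filter at 1.5 times the negative control, subtraction of that control, fits on the compared groups alone, the replicate number as a term, and leaving out single mice. Tests across genes were tested on simulated data. With 3 mice against 3 an exact permutation test of 1 gene cannot give a two-sided p under 0.1, so none was run. Depth, given in the report, limits precision most for members with few counts.

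Members were named with values if they were Kcna4 or Kcnh5, were called between groups, had one of the 2 smallest p-values of a region and contrast or one of the 5 largest region differences in a direction (in both cases at or above 1.5 times the negative control), had the highest mean of their subfamily or lay nearest to that limit. For a region difference, any compared region at that level sufficed. The called members of the region contrasts outside the rule were named after their values were seen. The members and all lists were chosen with earlier results of these data known. Sequences came from RefSeq (GRCm38.p6). Counts cover all members, and results for some single genes are not reported here.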

Additional observations from a re-analysis of the deposited data

Results flagged for a closer look

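For 5 members the fitted difference between flight and ground had opposite signs in 2 settings, with no overlap of the compared groups in either. Groups did not overlap in 10.4% (CT) to 14.8% (DG) of all genes for FLT-SAL against GC-SAL. For FLT-BuOE against GC-BuOE the share was 11.0% of all genes in FCT and in CT. How many of all genes change sign in this way was not counted. The tests of the difference are limma tests within the same data, and none passed the Benjamini-Hochberg adjustment over all genes.

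Between regions in saline mice, the silent Kv6 gene Kcng2 was at 0.51 on the log2 scale in DG and -0.34 in CT (F test over 4 regions, limma p 0.072, adjusted p 1.00). Over all mice Kcng2 lay below 1.5 times the negative control in CT, so its CT level is mostly background. The leak gene Kcnk9 was at 0.35 in CT and -0.26 in FCT (limma F test p 0.091, adjusted p 1.00). Kcnu1, the Slo3 gene, was at 0.24 in FCT and -0.40 in DG (limma F test p 0.38, adjusted p 1.00). Kcnv1, a silent Kv8 subunit, was at 0.46 in DG and -0.27 in CT (limma F test p 0.030, adjusted p 1.00).

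Between saline and BuOE mice, Kcnj10, the astrocyte inward rectifier, was at 0.29 with saline and -0.44 with BuOE in CT (limma interaction p 0.0045, adjusted p 0.84). Kcnv1 was at -0.27 with saline and 0.57 with BuOE in CT (limma interaction p 0.0015, adjusted p 0.68). Kcnu1 was at 0.24 with saline and -0.59 with BuOE in FCT (limma interaction p 0.016, adjusted p 0.90), where its level was 1.5003 times the negative control.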

How the results depend on the processing

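Of 1200 alternatives over 63 results for single genes, 1148 kept direction and side of the threshold, 14 lost a call, 38 gained one and 0 reversed. Among 468 alternatives over 24 counts of called members, 43 moved by more than 1.5 times. For FLT-SAL against GC-SAL the count of 0 became 1 in CA (Kcnq3) with the filter, edgeR with TMM or upper-quartile scaling, DESeq2 and the compared groups alone, 1 in DG (Kcnk1) with both edgeR scalings, DESeq2 and the compared groups alone, 1 in FCT (Kcna1) with edgeR upper-quartile scaling, DESeq2 and the compared groups alone, and 1 in CT (Kcnh5) with both edgeR scalings. For FLT-BuOE against GC-BuOE in CA the count of 1 became 0 with DESeq2. With the background subtracted, DG against CA went from 16 to 50 and hippocampus against cortex from 13 to 35, and the F test between regions went from 0 to 2 with edgeR. Without the mouse block or with the mouse as a fixed term no region count moved by as much. Apart from the subtraction, whose own construction moves low genes most, the cause was not tested.

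Leaving out 1 mouse at a time gave 0 to 1 called member for FLT-SAL against GC-SAL in CA, FCT and CT and 0 to 3 in DG, where Kcnd2, Kcna4 and Kcnk1 were called without GC-SAL mouse 2. It gave 0 to 1 for FLT-BuOE against GC-BuOE in CA, lost without GC-SAL mouse 3, FLT-SAL mouse 1 or 3, GC-BuOE mouse 1 or 2 or any 1 FLT-BuOE mouse. It gave 0 to 2 for FLT-BuOE against FLT-SAL in CT, with 0 without FLT-BuOE mouse 1 and 2 (Kcnh5 and Kcnip2) without mouse 3. The interaction in CT gave 0 to 1, with 1 without FLT-BuOE mouse 3. FCT against CT gave 0 to 1, with 1 (Kcnh5) without GC-SAL mouse 2 or GC-BuOE mouse 1.

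Groups share replicate numbers but not mice. Over 72 pairs of AOIs with the same number the correlation of their deviations from group means was -0.19 to 0.15 (median 0.024), over 0.1 in 4, so the numbers were not taken as pairs. With the number as a replicate block, the count for FLT-SAL against GC-SAL became 1 in CA, 1 in DG and 1 in FCT, and no other count between groups moved. The fits on compared groups alone were not run for the interaction.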
